A study of Caenorhabditis elegans with 12 samples.

Results

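The gene *xbp-1* (CELE_R74.3) was examined for KLF-1 ChIP-seq peaks in *C. elegans*. It lies on chromosome III from 4193809 to 4195358 (RefSeq, assembly WBcel235), a span of 1550 bp. Peaks were taken where they carried this gene symbol or overlapped a window of 8001 bp around it. No peak of the 6 deposited lists carried the symbol, and 3 peaks overlapped the window, of 3116 peaks in all. They merged into 1 region of the 1218 regions that the peaks of all libraries formed when any that shared at least 1 bp were joined. The gene was singled out because these peaks came from every *isp-1;ctb-1* replicate and from none of WT, and because they ranked high in their lists. Presence, fold enrichment and rank are therefore given as a description, and no test was run on them.

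XBP-1 is a transcription factor of the bZIP family and a main effector of the response to unfolded proteins in the endoplasmic reticulum (ER). When unfolded proteins build up in the ER, the sensor IRE-1 cuts the *xbp-1* mRNA, and the rejoined message encodes the active factor, which switches on chaperones and the machinery that degrades misfolded ER proteins. In the worm intestine this branch is known for its part in tolerating infection by bacteria. KLF-1 belongs to the Krüppel-like zinc finger factors, and the experiment asked which genes it binds when mitochondria are impaired.

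The WT strain was N2 carrying the integrated transgene Is[pvha-6::klf-1-yfp], and the mutant strain carried the same transgene with *isp-1(qm150)* and *ctb-1(qm189)*, both in subunits of respiratory complex III. Both strains therefore expressed KLF-1-YFP from the gut promoter of *vha-6*, and both were fed HT115 bacteria with the L4440 plasmid and collected whole on day 1 of adulthood. Chromatin was pulled down with GFP-Trap, beads that bind YFP, in 3 ChIP libraries per strain, each with 1 input library. No pulldown from untagged animals was analysed here, so a peak is DNA enriched over input and not by itself a site of KLF-1.

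The 3 peaks lay across the lower-coordinate end of *xbp-1* and nearly coincided. In *isp-1;ctb-1* replicate 1 the peak ran from 4193574 to 4194144 (571 bp), in replicate 2 from 4193634 to 4193954 (321 bp) and in replicate 3 from 4193596 to 4193994 (399 bp). The peak of replicate 2 lay wholly inside the other two, so that the shared part was its 321 bp, with 175 bp before *xbp-1* and 146 bp inside it. The peaks began 208 ± 30.4 bp before the end of the gene and ended 222 ± 100.2 bp past it (SD, n = 3), and their centres lay 50 bp inside, 15 bp outside and 14 bp outside. The left edges thus varied less than the right edges. The part of the peak inside the gene was 58.8, 45.5 and 46.6%. The RefSeq gene table holds no strand, and the deposited peaks at *xbp-1* carry none, so whether this end is the start or the end of transcription is not stated here, and which exon the peaks cover was not analysed.

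**Figure D1:**
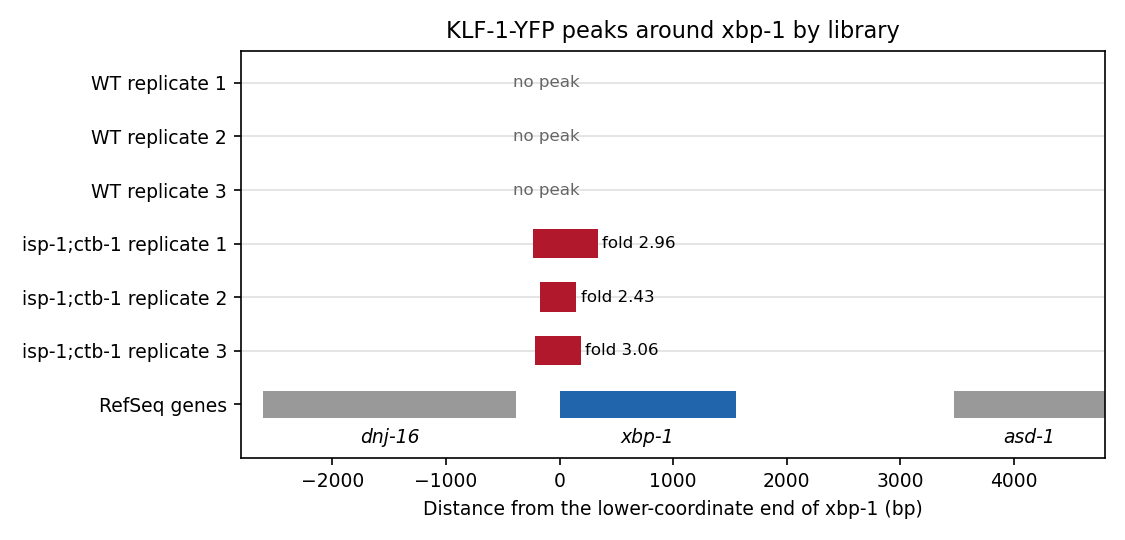
Peaks of the 6 ChIP libraries around *xbp-1*, drawn as bars against the distance in bp from the lower-coordinate end of the gene, with RefSeq gene spans in the bottom row (*asd-1* runs past the right edge). The 3 *isp-1;ctb-1* bars sit across that end, and no WT library has a bar in the window.

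On the other side of the peaks stood *dnj-16* (CELE_R74.4), which encodes a protein with a DnaJ domain, a family that works with HSP70 chaperones. It ends at 4193429, and the gap between *dnj-16* and *xbp-1* was 379 bp. The peaks began 145, 205 and 167 bp past the end of *dnj-16* and did not reach it. Both genes lay within 2000 bp of the region, so the peaks cannot be given to *xbp-1* by distance alone, although they overlapped that gene and not the other. Next on the far side of *xbp-1* came *asd-1*, which encodes an RNA-binding splicing regulator and lay 3141 bp from the region. Within 10000 bp there were 9 annotated genes, among them *lars-1*, a leucyl-tRNA synthetase, at 6773 bp and *pelo-1*, a ribosome rescue factor, at 8109 bp. None of the 9 was named in any deposited list.

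The fold enrichment over input at *xbp-1* was 2.96, 2.43 and 3.06 in *isp-1;ctb-1* replicates 1, 2 and 3 (mean 2.82 ± 0.34, SD, n = 3). Replicate 2 was the lowest, and its list also had the lowest median, 1.53 against 1.94 and 1.73. Divided by the median of its own list, the fold at *xbp-1* was 1.53, 1.59 and 1.77. Relative to their lists the 3 peaks were therefore closer together than the folds themselves. The peak ranked 9 of 620, 6 of 386 and 4 of 565 by fold enrichment, which placed it within the top 1.45, 1.55 and 0.708% of the lists. In replicate 3 it shared its rank with 2 other peaks of the same fold, and the highest folds of the lists were 3.41, 4.33 and 4.57. By width it was less unusual, ranking 94, 234 and 251, with list medians of 317, 372 and 358 bp.

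**Figure D2:**
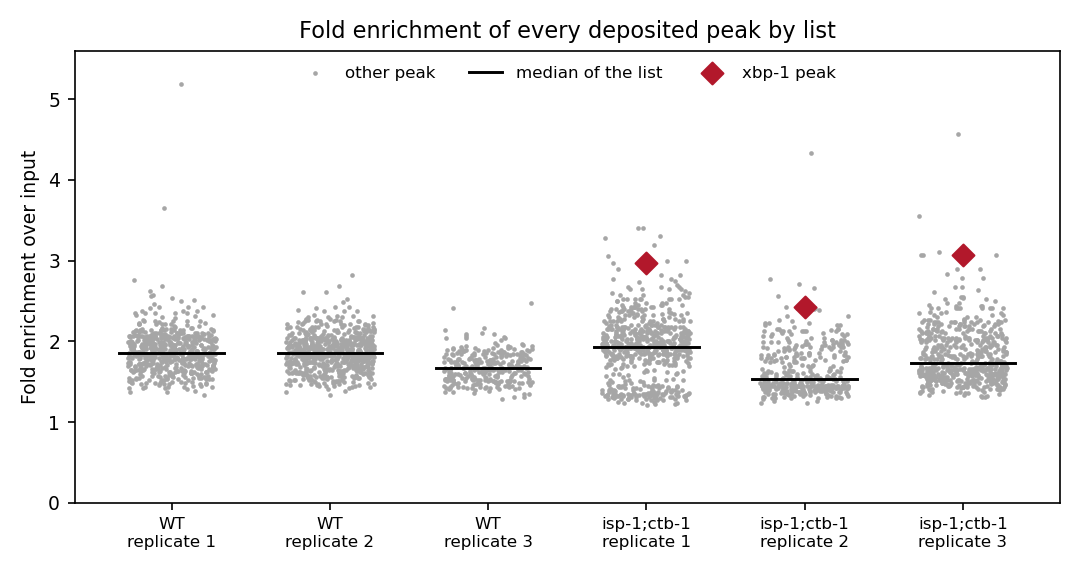
Fold enrichment over input of every deposited peak (grey points, spread sideways at random) in the 6 lists, with the median of each list (line) and the *xbp-1* peak (diamond). The diamonds stand at 2.96, 2.43 and 3.06, above the medians of 1.94, 1.53 and 1.73, and the WT lists have none.

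Peaks at mitochondrial DNA, which has many copies per cell, were present in every list. At *xbp-1* the fold was 2.23, 1.67 and 1.84 times that of the mtDNA peak of the same list. In the *isp-1;ctb-1* lists many folds were whole multiples of 1 step, within 0.0002: 63.4% of peaks in replicate 1, 26.7% in replicate 2 and 33.3% in replicate 3, where evenly spread values would give 1.63, 1.74 and 1.41%. In the WT lists the best step held fewer peaks, 11.1, 12.3 and 5.61% against 1.09, 1.19 and 1.81%. In each list the step was the one that most peaks fell on, while the values for an even spread are for a step fixed beforehand. How high a share the search alone would give was not computed, so no step is claimed for the WT lists. The *xbp-1* peak was on the step in all 3 *isp-1;ctb-1* lists, at 121, 106 and 108 steps of 0.0245, 0.0229 and 0.0284. Of the 60 regions that each mutant replicate and no WT replicate held, 34 (56.7%) were on the step in every list of that strain. Of the 101 regions that each mutant replicate and at least 2 WT replicates held, 8 were (7.92%). Of all 177 regions that each mutant replicate held, 50 were (28.2%). The sources used here do not say what a step counts, and no counting error was computed from it.

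None of the 3 WT lists, of 577, 665 and 303 peaks, had a peak in the window. The WT peaks nearest to the region lay 87.9, 88.1 and 206 kb away in replicates 1, 2 and 3. The lists went down to folds of 1.34, 1.34 and 1.29, but the fold is not what decides whether a peak is called, so these values set no upper limit for WT at *xbp-1*. The reporting form that came with the study lists fewer uniquely mapped reads for each WT pulldown than for any mutant pulldown. Depth and strain cannot be told apart here.

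Within 100 kb the merged peaks formed 3 other regions. At 29.5 kb a region of 510 bp over *mpk-1*, an ERK-type MAP kinase, was found in *isp-1;ctb-1* replicates 1 and 3, with folds of 2.16 and 1.82, and in no WT library. At 75.5 kb there was a peak in *isp-1;ctb-1* replicate 1, with a fold of 1.59. At 87.6 kb, next to *sup-26*, an RNA-binding protein gene, every mutant replicate had a peak, with folds of 2.53, 2.77 and 2.84, and so did WT replicates 1 and 2, with folds of 2.50 and 2.31. WT replicate 3 had no peak within 100 kb. Why no WT peak was called at *xbp-1* was not tested.

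With *xbp-1* counted, 60 of the 1218 regions (4.93%) had its pattern, a peak in each mutant replicate and none in WT, and 38 (3.12%) had the reverse. This share is the one that chose the gene, and nothing is read from it. By mean rank over the 3 lists *xbp-1* stood at 6.33, ahead of the other 59, with a median of 88.3 and a highest value of 234 over the 60. In replicate 1 the folds of 2 of these regions were above that of *xbp-1*, and in replicates 2 and 3 none was, though 1 equalled it in replicate 3. By mean fold 2 regions lay above it, and without *isp-1;ctb-1* replicate 2 or replicate 3 its mean rank stood second. In width, 571 bp, it lay near the middle of the 60, of which 22 were wider (median 490 bp).

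**Figure D3:**
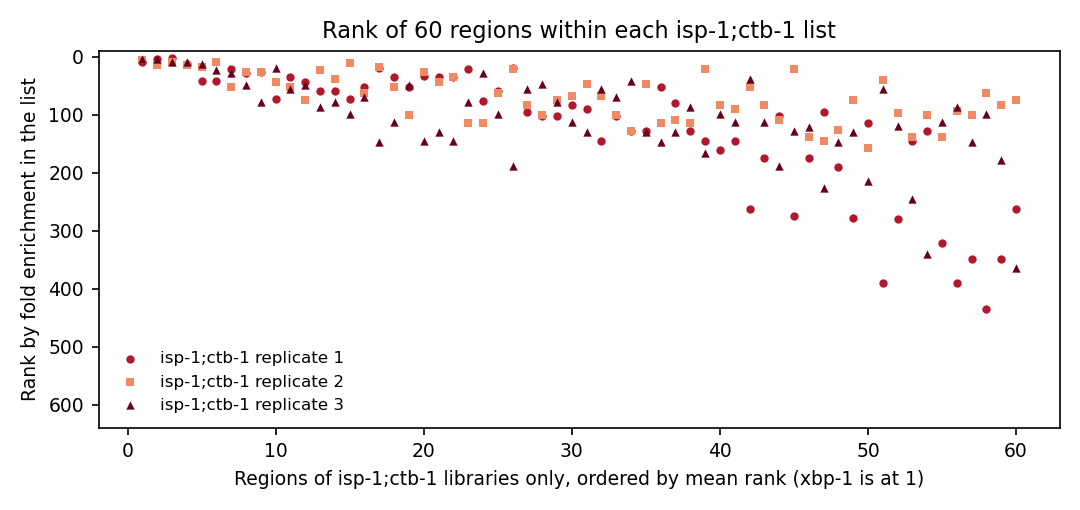
Rank by fold enrichment in each of the 3 *isp-1;ctb-1* lists (1 is the highest fold; the axis runs downwards) for the 60 regions with a peak in each of these lists and none in WT, ordered by mean rank. The *xbp-1* region is at the left, with ranks 9, 6 and 4, and the lists spread apart towards the right.

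The regions most like *xbp-1* were chosen by the summed difference in rank, in percent of the list, over the 3 *isp-1;ctb-1* libraries. The nearest, at 3.07, lay on chromosome III from 10633945 to 10634446 between *meic-1* and Y39A1A.10, with folds of 3.31, 2.38 and 2.78. The second, at 3.14, lay over Y48C3A.5 and the zinc finger gene *ztf-22*, with folds of 3.28, 2.22 and 3.06. The third, at 3.88, lay next to *rpa-2*, which encodes a subunit of replication protein A, with folds of 2.82, 2.22 and 2.78. The other regions were further off. The fourth, at 9.64, lay between *larp-1*, a La-related RNA-binding protein gene, and *wip-1*, and the fifth, at 9.85, between the ribosomal protein gene *rpl-18A* and Y17G9B.5. Within 2000 bp the fifth also had Y17G9B.4 and *cyc-2.1*, and the third M04F3.4.

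In its place on the gene, *xbp-1* was 1 of 15 regions (25%) among the 60 that crossed an end of 1 or more protein-coding genes. A further 34 lay between genes, 10 inside a gene and 1 covered a whole gene. Over all 1218 regions, 10.4% crossed an end, and among the 184 regions with peaks in at least 2 libraries of both strains, 5 did (2.72%). The median width was 490 bp for the 60, 363.5 bp for all regions and 1151 bp for the 184, so the shares are not matched for width. No test was run between them. Of the 5 regions most like *xbp-1*, 4 lay between genes and 1 inside a gene.

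The deposited comparison between the strains held 287 regions, each with a mean for condition 1 and condition 2, and *xbp-1* was among them, at the coordinates of the peak of *isp-1;ctb-1* replicate 1. The authors' mean there was 254.62 in condition 1 and 381.8 in condition 2, a ratio of 1.5. The table gives no value per library, so this ratio has no error. Its columns do not name the strains. The regions were therefore grouped by the libraries whose peaks overlapped them by at least 1 bp. The 60 regions of the comparison that mutant peaks alone overlapped, *xbp-1* included, were higher in condition 2 without exception. Of the 29 that WT peaks alone overlapped, 25 were higher in condition 1. These 60 were chosen with fewer conditions than the 60 regions described above, since 1 mutant library was enough. The peaks that set the groups and the condition means come from the same pulldowns. The directions were therefore largely given by the grouping and are no separate result. Over all 287 regions the ratio had a median of 0.996, with 141 regions higher in condition 2 and 146 in condition 1.

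Both condition means at *xbp-1* were above 0, and the lowest condition 1 mean of the 287 regions was 84.5. Per kb of region the means were 446 and 669, below the medians over the 287 regions, 1692 and 1622, and above the medians of the regions with mutant peaks alone, 361 and 526. Of those 60, 57 had a lower condition 1 mean per kb than *xbp-1*, and the other 59 all had a lower condition 2 mean per kb. Its ratio was not among the highest, at place 22 of 60. Among the 29 of them that peaks of each mutant replicate overlapped, the ratios ran from 1.31 to 2.22, and *xbp-1* was at place 15, the median. The highest, 2.22, was at *ztf-22* and Y48C3A.5, and the ratios at *meic-1* and *rpa-2* were 1.71 and 1.44. The gene was chosen for high-ranking mutant peaks of the same pulldowns. Its high level within this set, beside a middling ratio, is therefore a description only.

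**Figure D4:**
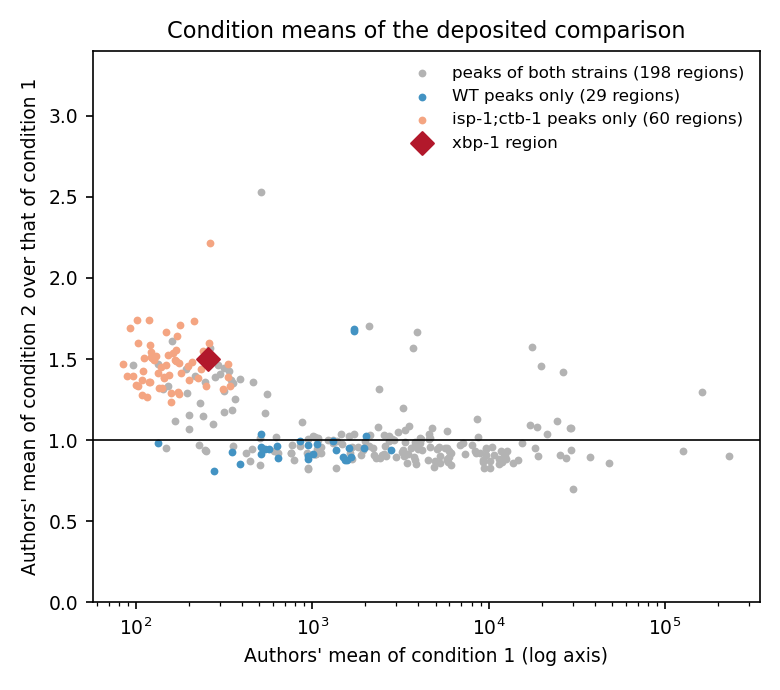
Ratio of the authors' condition 2 mean to their condition 1 mean against the condition 1 mean (log axis) for the 287 regions of the deposited comparison, coloured by the strains whose peaks overlap them. The *xbp-1* region (diamond) lies at 254.62 and 1.5, among the regions with *isp-1;ctb-1* peaks alone, which all lie above 1. Peaks and means come from the same pulldowns, so this side of 1 is largely set by the grouping.

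The lists named no gene for the *xbp-1* peaks and gave no p-value for them, and the comparison table gave the region no gene either. This held for the whole of chromosome III. None of its 607 peaks in the 6 lists had an assigned gene or a p-value, although 140 of them overlapped a protein-coding gene of the RefSeq table. On the other nuclear chromosomes 1652 of 2501 peaks (66.1%) had a gene, between 60.6% on X and 70.8% on II. Of the 60 regions with the pattern of *xbp-1*, 17 lay on chromosome III, as did 259 of all 1218 regions. In 18 of the 60 no list assigned a gene. Of the peaks in the 60 regions 29.5% had no gene, against 47.0% of all peaks. Any threshold on the deposited p-value therefore drops *xbp-1* without regard to its fold. With a fold over 1.5 and a p under 0.05, 3 regions had the pattern in place of 60, and 0 of these 3 overlapped any of the 60. With the fold alone 60 had it, *xbp-1* among them.

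**Figure D5:**
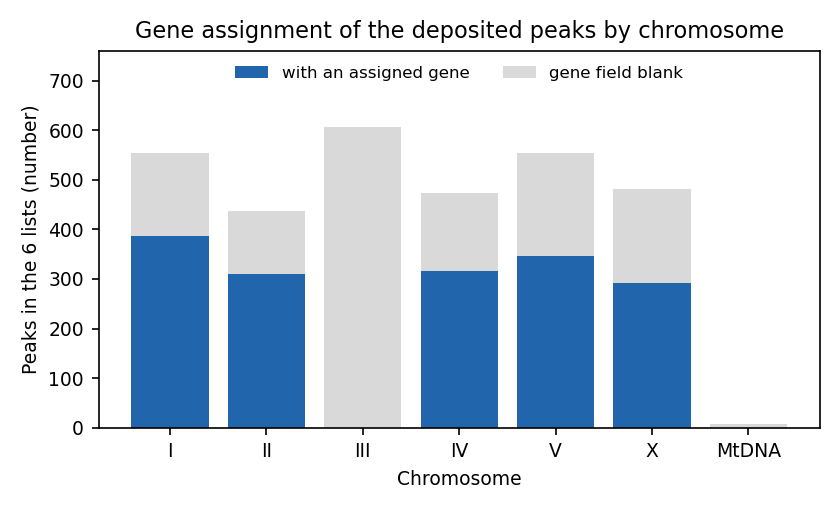
Number of peaks in the 6 lists by chromosome, split into those with an assigned gene and those whose gene field is blank. Chromosome III, which holds *xbp-1*, has 607 peaks and none with a gene, as do the 8 peaks of the mitochondrial DNA, while the other chromosomes have a gene for 60.6 to 70.8% of peaks.

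Other genes of the ER unfolded protein response had peaks in fewer libraries or with lower folds. Of 30 genes on a list of its sensors, factors, chaperones and degradation machinery, 3 lay within 2000 bp of a peak in at least 2 *isp-1;ctb-1* libraries, *xbp-1*, *hsp-3* and *enpl-1*, where 2.4% of all protein-coding genes did. In WT none of the 30 did, and 1.33% of all protein-coding genes. With *xbp-1* set aside, since it was chosen for its peaks, 2 of 29 remained, a number too small to set against the background. The gene *hsp-3* encodes a BiP chaperone of the ER. Its peaks lay 141, 240 and 216 bp from it, and the mutant replicates gave folds of 1.84, 2.06 and 2.24, while no WT library had a peak. Each was below the fold at *xbp-1* in the same library, and the same peaks lay near C15H9.5. The gene *enpl-1* encodes the ER chaperone related to GRP94. Peaks overlapped it in each mutant replicate, with folds of 2.07, 1.97 and 2.41, and in WT replicate 1, with 2.25, so that it did not share the pattern of *xbp-1*. They also lay near *imp-2*.

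A further 4 genes of the list had a peak in *isp-1;ctb-1* replicate 1 alone. They were *rtcb-1*, the RNA ligase that rejoins the cut *xbp-1* message, with a fold of 1.67, *crt-1* (calreticulin) with 1.79, *cdc-48.1*, an ATPase that extracts misfolded proteins from the ER, with 2.45, and *manf-1* with 1.84. The other 23 genes, among them *ire-1*, *pek-1* and *atf-6*, the 3 sensors of the response, and *hsp-4*, the other BiP gene and a classical target of XBP-1, had no peak within 2000 bp in any library. Since *xbp-1* was chosen for its peaks and only 2 other genes passed, no pattern within the pathway is read from these places.

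Among 27 bZIP genes, the family of XBP-1, 4 had a peak within 2000 bp in at least 2 *isp-1;ctb-1* libraries and none in at least 2 WT libraries, against 2.4 and 1.33% of all protein-coding genes. Without *xbp-1*, which was chosen for its peaks, 3 of 26 remained, too few to set against that share. Besides *xbp-1* these were *cebp-1*, a C/EBP factor, with folds of 1.86 and 1.87 in replicates 1 and 3, *zip-2*, known from the response to bacterial infection, with 2.33 and 2.36 in replicates 1 and 3, and *zip-11*, with 2.06 and 1.99 in replicates 1 and 2. The peaks at *zip-2* also lay near *ceeh-1* and *dos-3*. None of the 3 had a peak in every mutant replicate, as *xbp-1* did. The count rests on replicate 1. With it left out a peak was needed in both remaining mutant lists, and *xbp-1* alone remained. Of 20 transcription factors of stress responses and the gut, 3 passed in *isp-1;ctb-1*, *xbp-1*, *hif-1*, the hypoxia factor, with 1.99 and 1.93 in replicates 1 and 2 at 1891 and 1903 bp, and *klf-1*. Set against the same 2.4%, 2 of 19 remained without *xbp-1*, again too few to compare. Without replicate 2, *xbp-1* alone remained here too. In WT *klf-1* was the 1 that passed. Its coding sequence is also that of the transgene, and its folds, from 1.23 to 1.90, were below those at *xbp-1*. The genes *atfs-1*, *skn-1*, *daf-16* and *hsf-1* had no peak within 2000 bp in any library. At 5000 bp *atfs-1*, the factor of the mitochondrial unfolded protein response, had peaks in at least 2 mutant libraries, and at 500 bp *hif-1* and *cebp-1* no longer did.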

How the data were processed

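Per the labels, ChIP and input libraries came from whole animals of both strains on day 1 of adulthood, and the grouping follows their titles. Reads were checked by the authors with FastQC 0.10.1 and aligned to Ensembl release 93 with BWA, for which the sources used here give no version. Peaks came from MACS2 2.0.10, run on 1 pulldown and its matched input at a time. Each deposited list gives per peak its ratio to input, the fold enrichment, and a p-value from a test the sources do not name. The deposited comparison holds a mean per condition, whose unit and normalization the sources do not name. Its regions were matched to libraries by overlap, since for 64 of 287 the deposited peak identifiers left out a library with an overlapping peak. Its columns of fold change and p-value, the authors' own comparison, were not used.

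Every deposited peak was used, and peaks with at least 1 bp in common were merged. Ranks are by fold within a list. Genes came from the RefSeq table of WBcel235 (46926 genes, 19983 protein-coding), within 2000 bp on either side. The step of the folds was searched between 0.02 and 0.04, and the one with the most peaks on it was taken. No test was run, because the gene was chosen on this readout, and the members and gene lists were chosen with earlier results of these data known. Named genes were *xbp-1*, genes within 10000 bp or near the 5 most like regions, and list members with peaks in at least 2 libraries. Others were named after their values were seen. Alternatives were the stated threshold (fold over 1.5, p under 0.05), other merging rules, gene distances and rankings, and each library left out in turn. A motif search and the printing of sequence were not done here, because only a gene table was used. The merging and step search were tested on simulated peaks. Python 3.11.15, numpy 2.4.6, pandas 2.3.3 and matplotlib 3.10.9 were used. Whether replicates are separate cultures is not stated, so the SD may be technical. Depth per peak is not in the lists.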

Additional observations from a re-analysis of the deposited data

How the results depend on the processing

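The number of regions with the pattern of *xbp-1*, 60 with every deposited peak, fell to 3 with a fold over 1.5 and a p under 0.05, which no chromosome III peak can pass. It ran from 60 to 129 with each library left out in turn, and 129 was reached without *isp-1;ctb-1* replicate 2. Leaving out a library also changed the rule. The pattern then needed a peak in 2 mutant lists in place of 3, or absence from 2 WT lists in place of 3. The gene lists then needed a peak in both remaining mutant lists. The *xbp-1* region kept the pattern in 11 of 12 settings, among them merging by 50% overlap or within 500 bp. Most of these could not have removed it, since the gene was chosen for this pattern. A region with peaks in each mutant list and none in WT keeps it whichever library is left out. No other peak lay within 500 bp, and the folds at *xbp-1* were 2.43 or more. The count of 11 is therefore no support for the pattern. The place of *xbp-1* among the regions with the pattern was 1 to 2 with a library left out, 2 by fold over the list median and 3 by mean fold. The ranking by mean fold was chosen after seeing the data, as were a fold over 1.5 with no condition on p and the settings of the stress factor list. The mean fold at *xbp-1* was 2.70 to 3.01 with 1 library left out, and 1.63 on the scale of the list median. At the stated threshold 0 genes of each of the 3 lists kept a peak in 2 libraries. The peaks at *hsp-3*, *enpl-1*, *cebp-1* and *hif-1* had p-values, and all were above 0.05. With genes as the deposited lists assign them, 2 ER genes, *hsp-3* and *enpl-1*, 1 bZIP gene, *cebp-1*, and 1 stress factor, *hif-1*, did. Within 500 and 5000 bp the counts were 3 and 3 for the ER list, 3 and 6 for bZIP genes and 2 and 4 for stress factors. Without mutant replicate 1, 2 or 3 the bZIP count was 1, 3 and 2, and the stress factor count 2, 1 and 2. The ER list count was 3 each time. WT libraries do not enter these counts, so leaving them out could not change them. No other ranking by p was possible, since *xbp-1* has none, and the motif search was not run. No paired analysis was possible because no result comes from a test. The lists give no reads per peak, so counting error is unknown.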
